A study of Drosophila melanogaster with 4 samples.

Results

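The paired POU genes nubbin (nub) and pdm2 lie side by side on chromosome arm 2L of the Drosophila melanogaster genome (build dm6). They were matched by symbol in a RefSeq gene table of the same assembly, and are 2 of the 13922 protein-coding genes that the table lists on the 6 main arms. nub spans 2L from 12587625 to 12628135 (40.5 kb) and pdm2 from 12657165 to 12686306 (29.1 kb). The window examined held both spans, the 29.0 kb between them and 20 kb on each outer side, in all 138.7 kb from 12567625 to 12706306. It met 21 of the 9599 regions that result when the called peaks of all libraries are merged wherever they overlap by 1 bp or more. Wing imaginal discs of female larvae at the wandering stage were profiled by anti-GFP CUT&RUN, in which an antibody-tethered nuclease cuts out DNA at the marked protein. Osa-GFP larvae, in which the chromatin protein Osa carries GFP, gave 2 libraries. The same antibody was used on yw larvae without GFP, also in 2 libraries, to show what it returns with no target. Where a genotype has a pair of values, that of replicate 1 stands before that of replicate 2. All animals were raised at 25 °C, and each library came from 20 to 22 whole discs, so cells that use nub and cells that do not were measured together. The labels name neither the construct behind the GFP tag nor separate crosses behind the replicates, so part of the spread between replicates may be technical.

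POU proteins bind DNA through a bipartite domain made of a POU-specific part and a homeodomain. nub, also called Pdm1, is active in the wing pouch, the part of the disc that becomes the wing blade, and flies that lack its function there have small, misshapen wings. pdm2 is its close relative and neighbour; in the embryonic nervous system both act as factors that mark a time window of dividing neuroblasts. Osa is the ARID-domain subunit that defines one form of the SWI/SNF nucleosome remodeler, which slides or evicts nucleosomes at promoters and enhancers.

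The lists give no total read counts, so depth was recovered from the peak caller's folds, as the mean background coverage of a library. It was 0.472 and 0.460 fragments per position in the Osa-GFP lists, against 0.120 and 0.481 in the yw lists. yw replicate 1 stood apart as the shallow library, with 774 peaks on the 6 arms. The Osa-GFP lists held 5820 and 4987 peaks there, and yw replicate 2 held 4535.

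Osa-GFP peaks were numerous in the nub span and between nub and pdm2, and rare in the pdm2 span. No yw peak lay within 23099 bp of any Osa-GFP peak of the window. On the rest of arm 2L the yw lists had 0.488 and 3.10 peaks per 100 kb, against 4.16 and 3.57 in the Osa-GFP lists. Only the shallow yw replicate 1 was sparse there. The Osa-GFP lists held 16 and 11 peaks in the window, against 0 and 2 peaks in the yw lists. Both Osa-GFP lists thus had more peaks than either yw list, and the groups did not overlap. The same was true of all of arm 2L, with 988 and 846 peaks in Osa-GFP against 114 and 726 in yw. The mean was 13.5 ± 3.54 peaks in Osa-GFP and 1.00 ± 1.41 in yw (SD, n = 2 each), a difference of 12.5 peaks. The peaks covered 3.35% and 2.30% of the window in the Osa-GFP libraries, against 0% and 0.242% in the yw libraries, a difference in means of 2.70 percentage points. Each of these differences had a two-sided exact permutation p of 0.333, which is the smallest that the 6 assignments of 2 libraries against 2 allow, so no test across libraries can establish them. They were smaller among strong peaks: at −log10 q of 10 or more the window held 2 and 0 peaks in the Osa-GFP lists and none in the yw lists, and among the 774 strongest peaks of each list it held none.

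**Figure D1:**
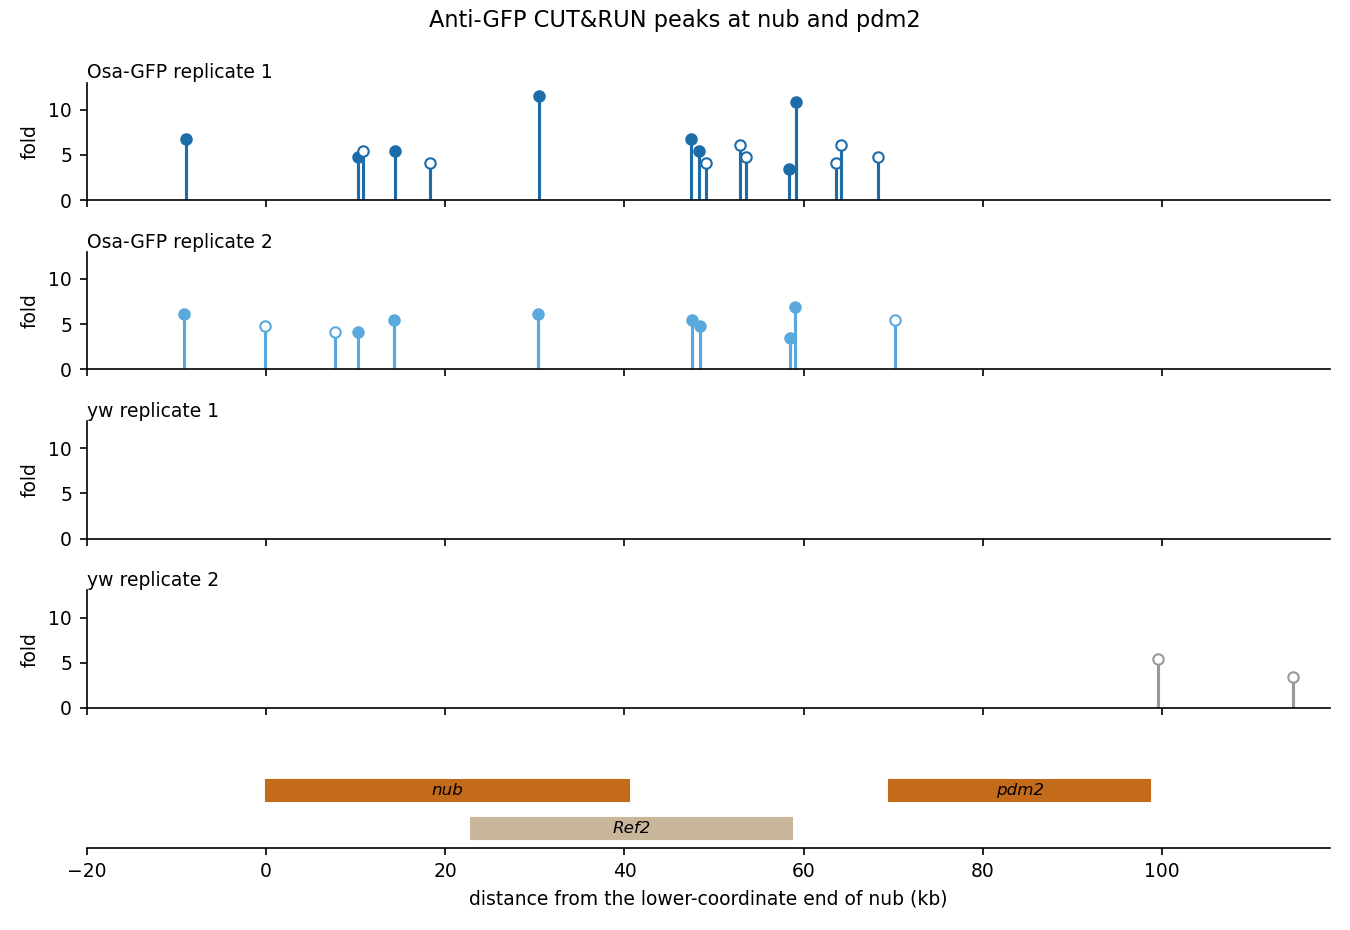
Peaks of each library along the window, by distance from the lower-coordinate end of nub in kb. Height is the peak caller's fold over background with 1 added to both terms, filled circles are peaks in regions that both Osa-GFP lists and no yw list held, open circles are other peaks, and bars at the bottom are the spans of nub, pdm2 and Ref2. Osa-GFP peaks lie from the flank of nub up to the edge of pdm2, yw replicate 1 has no peak, and the 2 peaks of yw replicate 2 lie beyond pdm2.

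Of the 21 regions in the window, 8 held a peak in each Osa-GFP list and in no yw list, and are called Osa-GFP-specific. This is 38.1% (95% Wilson interval 20.8% to 59.1%), where 18.4% of all 9599 regions were of this kind. No further region of the window held peaks of both Osa-GFP libraries; over all regions that share was 34.8%, within the interval of the window. Another 11 regions held a peak of 1 Osa-GFP library only, 8 of them in replicate 1 and 3 in replicate 2. Regions of 1 Osa-GFP library only were thus the most frequent class in the window, at 52.4% (interval 32.4% to 71.7%). They were also the most frequent class over all regions, at 32.7%, which lies within that interval. Only 2 regions held a yw peak (9.52%, interval 2.65% to 28.9%), against 48.9% of all regions. Intervals cover counting error only, and neighbouring peaks are not independent. The count of 8 became 5 at −log10 q of 5 or more and 0 at 10 or more. The share of all regions in this class was not computed at these thresholds, so these counts have no background beside them. With replicate 1 as the sole Osa-GFP library it was 16.

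The nub span held 3 Osa-GFP-specific regions. The strongest ran from 12617730 to 12618310, 581 bp wide, and was centred 10115 bp inside the higher-coordinate end of nub. Its folds, which are the authors' own values from the peak caller, were 11.6 and 6.16 in the Osa-GFP libraries. Each fold is the number of fragments at the summit over the background after 1 is added to both, which makes it smaller than the plain ratio. The plain ratios at this region were 33.9 (exact 95% Poisson interval 19.4 to 55.1) and 17.4 (7.50 to 34.2). Poisson intervals here and below treat the position and the background of each count as fixed in advance. They allow neither for the calling threshold nor for the choice of summit or region. No peak of either yw library met it, and the nearest yw peak lay 62488 bp away. It also lay within the span of Ref2, a gene for an RNA export factor binding protein, which overlaps the higher-coordinate part of nub and reaches on to 12646356. Another region ran from 12601797 to 12602170 (folds 5.44 and 5.48), and the last of the 3 from 12597666 to 12598164 (folds 4.76 and 4.11). These lay 14358 and 10290 bp inside the lower-coordinate end of nub, in the part that no other gene of the table overlaps.

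Peaks of 1 Osa-GFP library only lay among them. Replicate 1 alone had a peak from 12598285 to 12598598, 120 bp from the last of these, with a fold of 5.44. It had a further peak from 12605786 to 12605990 with a fold of 4.08. Replicate 2 alone had a peak from 12595217 to 12595375 with a fold of 4.11. At the lower-coordinate end of nub itself, replicate 2 alone had a peak from 12587458 to 12587625, with a fold of 4.79. That end therefore had a peak in 1 of 2 Osa-GFP libraries, and the region nearest to the higher-coordinate end was centred 6949 bp outside it. The gene table gives no strand, exons or introns, so start sites, exons, introns and UTRs were not told apart.

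Relative to its length, the interval between nub and pdm2 was the segment richest in peaks. It held 10 peaks of Osa-GFP replicate 1 and 4 of replicate 2, or 3.44 and 1.38 per 10 kb, and no yw peak. The nub span held 5 and 4 peaks in the same libraries, or 1.23 and 0.987 per 10 kb. By count, the interval thus led in replicate 1 only, and in replicate 2 it equalled the nub span. Of the 10 regions in the interval, 4 were Osa-GFP-specific and 6 came from replicate 1 alone. The interval is not free of genes, since Ref2 covers its part next to nub.

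A pair of Osa-GFP-specific regions lay 461 bp apart in the Ref2 span. The region from 12634970 to 12635199 was centred 6949 bp from nub and had Osa-GFP folds of 6.80 and 5.48. Its neighbour, from 12635661 to 12636231, had folds of 5.44 and 4.79. Replicate 1 alone added a peak from 12636607 to 12636737 (fold 4.08) on their far side.

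The other pair lay nearer to pdm2, at the end of the Ref2 span. The region from 12646389 to 12647059 was the widest of the 8, at 671 bp. Its folds were 10.9 and 6.85, the highest in the window for replicate 2 and the second highest for replicate 1. It met no gene span and was centred 10441 bp from the lower-coordinate end of pdm2. The region beside it, from 12645862 to 12646188, was separated from it by 200 bp and lay inside the Ref2 span, short of its end at 12646356. That region was the weakest of the 8, with folds of 3.40 and 3.42, each the lowest that its list contains.

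Towards pdm2 the peaks came from Osa-GFP replicate 1 alone. They ran from 12651187 to 12651339 (fold 4.08), from 12651727 to 12651933 (fold 6.12) and from 12655862 to 12656002 (fold 4.76). The last was centred 1233 bp outside the lower-coordinate end of pdm2. Replicate 1 also had 2 peaks between the 2 pairs of regions, from 12640366 to 12640652 (fold 6.12) and from 12641070 to 12641296 (fold 4.76).

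The pdm2 span held 1 peak in all. It came from Osa-GFP replicate 2 alone, ran from 12657619 to 12657917 with a fold of 5.48, and was centred 603 bp inside the lower-coordinate end. From there on, the remaining 28.4 kb of pdm2 and the 20 kb beyond it held no Osa-GFP peak. The 2 yw peaks of the window lay in that outer flank, both in yw replicate 2. The first, from 12687067 to 12687281, was centred 868 bp outside pdm2 and had a fold of 5.40. The second, from 12702163 to 12702283 inside CG5776, had a fold of 3.38, the lowest in that list. The flank beside pdm2 is crowded with other genes, among them CCT4, which encodes a chaperonin subunit, and PICK1.

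The flank beside nub held the remaining Osa-GFP-specific region. It ran from 12578341 to 12578741, met no gene span, and was centred 9084 bp outside nub. Its Osa-GFP folds were 6.80 and 6.16, and the summits called in the libraries were 1 bp apart. The 4 other genes of the table in that flank are long noncoding RNA genes, and none of them met a peak.

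The folds rest on few fragments. Summit fragments were recovered from the folds as whole numbers in every list. The 8 Osa-GFP-specific regions had 4 to 16 fragments at the summit in replicate 1 (median 8) and 4 to 9 in replicate 2 (median 7). At the strongest nub region there were 16 fragments in replicate 1 (exact 95% Poisson interval 9.15 to 26.0) and 8 in replicate 2 (3.45 to 15.8). At the widest region of the interval there were 15 (8.40 to 24.7) and 9 (4.12 to 17.1). At both regions the intervals of the libraries overlapped. Within each library the intervals of all 8 regions overlapped one another.

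**Figure D2:**
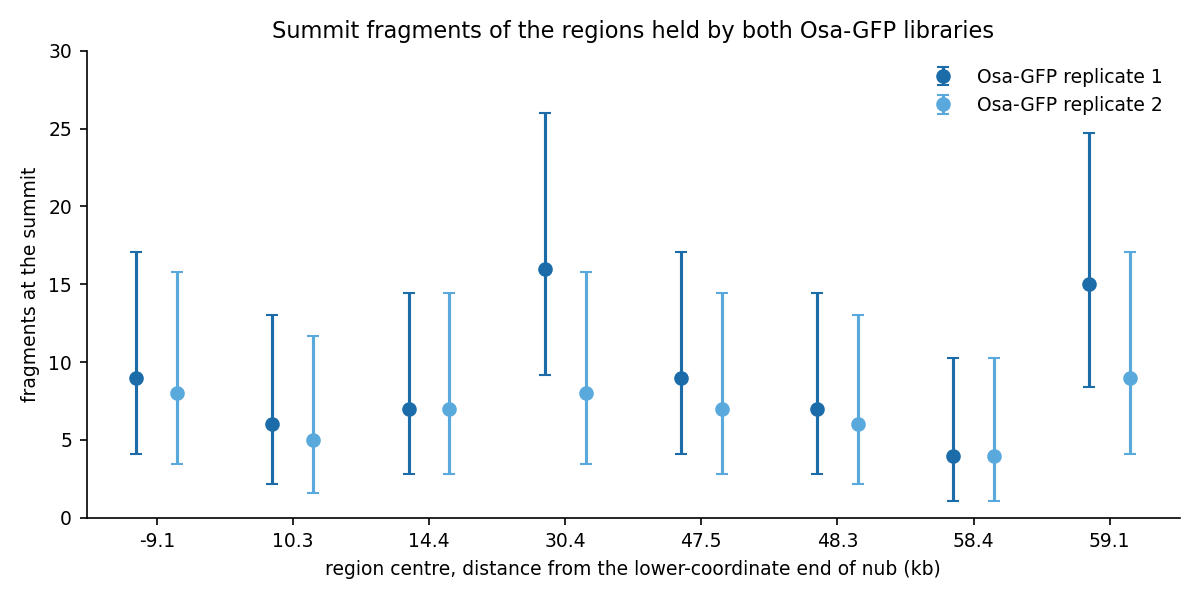
Fragments at the peak summit in Osa-GFP replicates 1 and 2 for the 8 Osa-GFP-specific regions, placed by the distance of the region centre from the lower-coordinate end of nub in kb. Points are recovered fragment numbers and bars are exact 95% Poisson intervals; the highest values, 16 and 15 in replicate 1, belong to the regions at 30.4 and 59.1 kb.

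Peaks at these genes were of middling rank in their lists. The strongest nub region stood at rank 1003 of 5820 peaks by −log10 p in Osa-GFP replicate 1 and at 2249 of 4987 in replicate 2, ties sharing the best rank. The best peak of the window stood within the top 17.2% and 37.8% of its list. Median folds over the 8 regions were 6.12 and 5.48 in replicates 1 and 2, beside 7.47 and 6.16 over all 1765 Osa-GFP-specific regions. Their median width was 450 bp, beside 402 bp over all of them.

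Within the 8 regions the highest summits of the Osa-GFP libraries lay 1 to 404 bp apart (median 83.0 bp), and 5 of the 8 pairs (62.5%) within 100 bp. Over all 1765 Osa-GFP-specific regions the median was 57.0 bp and 68.2% lay within 100 bp. The regions were chosen for overlapping peaks, which bounds these distances by their widths. Of the peaks in the window, 8 of 16 in replicate 1 met a replicate 2 peak (50%, Wilson interval 28.0% to 72.0%), where 60.3% did over the 6 arms. In the other direction 8 of 11 did (72.7%, 43.4% to 90.3%), where 71.6% did over the 6 arms. Both intervals held the value of the whole lists.

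The shallowness of yw replicate 1 limits what the lack of a yw peak shows. Scaled to the depth of yw replicate 1, only 2 of the 16 peaks of Osa-GFP replicate 1 and 0 of the 11 of replicate 2 would reach 3 fragments, the fewest of any peak in that list. By the fold, 15 of the 16 and 10 of the 11 reached the lowest of that list, 3.57. Because of the 1 added to both terms, the same plain ratio gives a smaller fold in a shallower library. The count by fold therefore sets unlike values side by side, and no conclusion was drawn from it. On the scaled fragments, the absence of yw replicate 1 peaks says little for most regions. Scaled to yw replicate 2, all 16 and all 11 would reach 4 fragments, the fewest of any peak there. That outcome was fixed in advance for every peak of the Osa-GFP lists. Their own fewest was 4 fragments, and their backgrounds (0.472 and 0.460) were below that of yw replicate 2 (0.481). It therefore says nothing particular about this window. Leaving out yw replicate 1 or yw replicate 2 kept the same 8 Osa-GFP-specific regions, which could not have come out otherwise. The class requires that no yw list has a peak, and no region of the window held peaks of both Osa-GFP lists and a yw list.

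Density on the rest of arm 2L gave a second measure within each library. In the Osa-GFP lists the window held 11.5 and 7.93 peaks per 100 kb, against 4.16 and 3.57 on the rest of the arm, a ratio of 2.77 and 2.22. In yw replicate 2 it held 1.44 peaks per 100 kb, against 3.10 on the rest of the arm, a ratio of 0.465. yw replicate 1 had 0 peaks in the window, where a count of 0 allows up to 2.16 per 100 kb, and 0.488 per 100 kb on the rest of the arm. As a share of the arm's peaks, the window took 1.62% (Wilson interval 0.999% to 2.61%) and 1.30% (0.728% to 2.31%) in Osa-GFP, against 0% (up to 2.63% by the limit of 3 counts) and 0.275% (0.0756% to 0.999%) in yw. The window is 0.590% of the arm. At −log10 q of 5 or more the Osa-GFP shares were 1.30% and 1.08%. At 10 or more they were 0.571% and 0%, and among the 774 strongest peaks of each list both were 0%. The excess over the window's share of the arm was thus not seen among the strongest peaks. The difference in mean share was 1.32 percentage points (two-sided exact permutation p = 0.333, the smallest possible, higher in 2 of 2 Osa-GFP libraries than in either yw library).

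**Figure D3:**
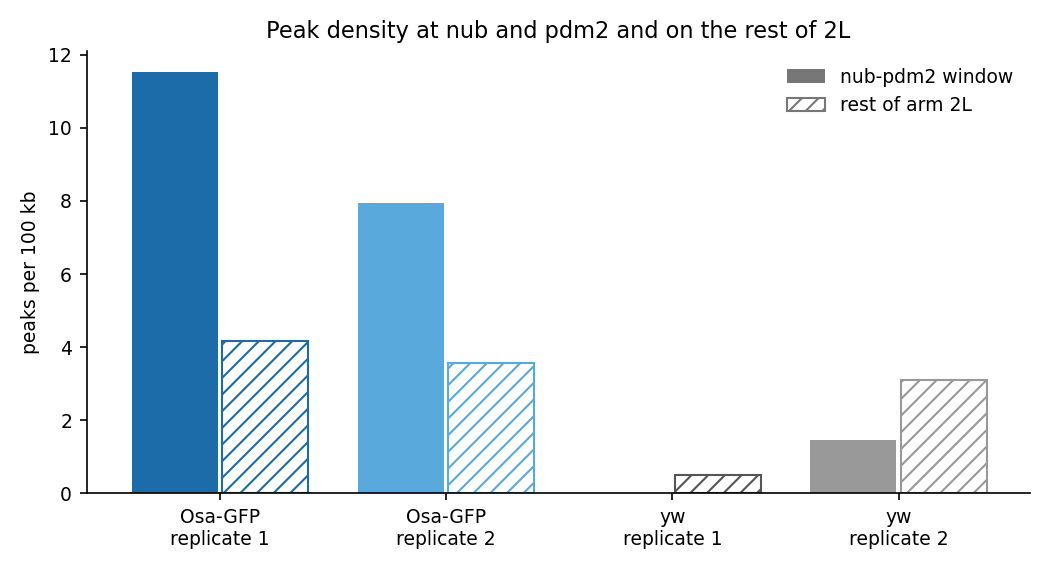
Called peaks of any strength per 100 kb in each library, in the nub and pdm2 window (solid bars) and on the rest of arm 2L (hatched bars). The solid bar is the taller in both Osa-GFP libraries, at 11.5 and 7.93, and the lower in yw replicate 2, at 1.44; yw replicate 1 has no peak in the window.

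Counted gene by gene, nub and pdm2 differed. Within its own span and 20 kb on each side nub had 8 Osa-GFP-specific regions and no region with a yw peak. Of the 13922 protein-coding genes, 27.5% had at least 1 such region and 0.158% (22 genes, nub included) had 8 or more. Each of the other 21 genes had at least 1 region with a yw peak in its window. pdm2 had 2 Osa-GFP-specific regions, a number reached by 12.3% of genes, and 2 regions with a yw peak. Both of its Osa-GFP-specific regions lay within reach of nub as well and were counted for each gene. With 10 kb on each side pdm2 had 0 and nub 6, and within the spans alone they had 0 and 3. Long genes have wider windows and neighbouring genes share regions, so these counts are descriptions.

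The other 3 POU genes differed among themselves. The gene vvl, which acts in wing veins and trachea, had 5 Osa-GFP-specific regions and 3 regions with a yw peak. acj6, known from olfactory neurons, had 0 and 1, and pdm3, also a neuronal gene, had 0 and 4. Per 100 kb of window, nub had 9.94 Osa-GFP-specific regions, vvl 11.2 and pdm2 2.89.

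Among 16 genes of wing pouch and proximodistal patterning, 14 had at least 1 Osa-GFP-specific region in the same kind of window, with a median of 2. Over all protein-coding genes 27.5% had at least 1, and the median was 0. All 16 also had at least 1 region with a yw peak, as did 74.8% of all protein-coding genes. The hinge gene hth had 17 Osa-GFP-specific regions, in a window of 172.0 kb, and 17 with a yw peak. elB and noc, zinc finger genes of appendage development, had 7 and 5, and the Dpp target bi had 6. The wing selector vg and the ligand gene wg had 3 each, and tio and salm had none. Per 100 kb, elB with 11.9, noc with 11.6 and hth with 9.88 were close to nub with 9.94. No test was made between genes. For cells of the disc other than epithelium, the muscle precursor genes twi, zfh1, htl and Him had 2, 1, 0 and 0 Osa-GFP-specific regions, and the tracheal genes trh and btl had 1 each. No RNA was measured, so the presence of these cells could not be checked.

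**Figure D4:**
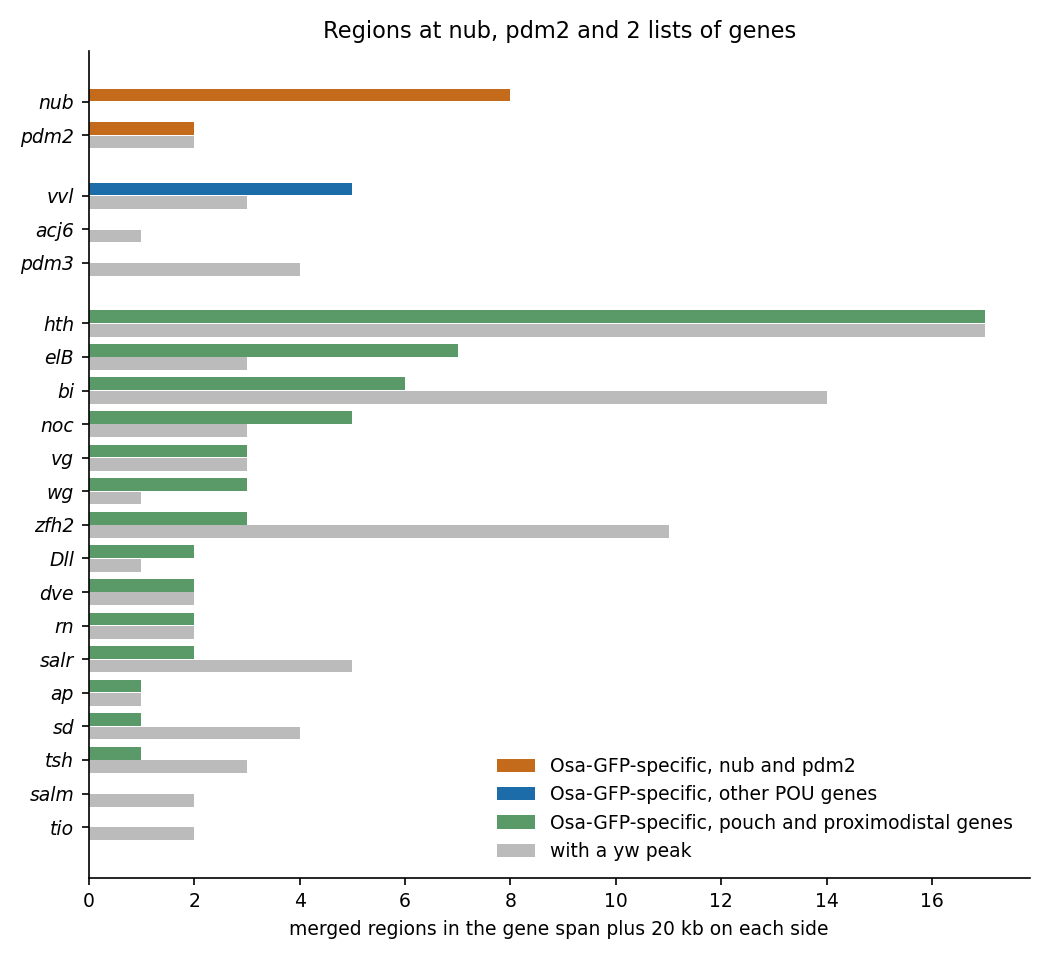
Merged regions in the span of each gene plus 20 kb on each side, for nub and pdm2, the other POU genes and the pouch and proximodistal genes. Coloured bars count Osa-GFP-specific regions and grey bars count regions with a yw peak; nub has 8 and 0, pdm2 has 2 and 2, and hth has 17 and 17.

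In all, 539 protein-coding genes (3.87%) had at least 1 Osa-GFP-specific region and no region with a yw peak in their window, and among them nub had the most, 8. The genes most like it were CG30114 with 7, Ref2 with 7, and CG43169, CG44812 and blistered (bs) with 6 each. Ref2 overlaps nub, and all 7 of its regions were also regions of nub. CG44812 lies inside the span of bs, and they shared all 6. bs encodes the fly serum response factor, which sets intervein fate in the wing.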

How the data were processed

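Peak lists of 4 libraries were analysed, 2 of Osa-GFP and 2 of yw wing discs, grouped by their titles. The authors' tools, per the submitters' processing notes, included MACS2 2.1.2 and Bowtie2 2.3.4.1, with Picard 2.2.4, SAMtools 1.10 and deepTools 2.4.1, on dm6; peak names, per the deposited lists, show 1 library per list. No source used here gives the command line or threshold. The deposited fold is a ratio within a library, which the values show to be summit fragments plus 1 over background plus 1, and the deposited p and q are −log10 values. Folds were whole multiples of 1 step per list (100% of peaks, tolerance 0.01), which gave summit fragments and background; a Poisson probability from these returned the deposited −log10 p to within 6.63e-06 where it was under 100. Peaks on 6 arms were merged with Python 3.11.15, NumPy 2.4.6 and SciPy 1.17.1, and merging was tested on simulated data. Depth is the recovered background.

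Gene spans came from RefSeq Release 6, without strand. The end of 2L was taken as the last peak or gene end. Members, gene lists (nub, pdm2, other POU genes, pouch and proximodistal genes, all counted; most-like genes by most specific regions with none holding a yw peak) and tests were chosen with earlier results of these data known. Libraries were compared by exact permutation. No sequence was used, so the planned motif search was not run.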

Additional observations from a re-analysis of the deposited data

How the results depend on the processing

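The excess of peaks and of covered bases in Osa-GFP libraries was positive under 10 of 11 alternatives for peaks and 9 of 10 for bases, and no alternative could reach a threshold with 2 libraries a group. With the 774 strongest peaks of each list the difference was 0 peaks and 0 percentage points; at −log10 q of 10 or more it was 1 peak and 0.422 points (exact permutation p = 1 for each). Leaving out 1 library gave 10 to 15 peaks and 2.18 to 3.23 points. With the replicate numbers as a block the differences were again 12.5 peaks and 2.70 points (exact sign-flip permutation p = 0.5, the smallest possible). The labels do not say that the numbers pair the libraries, and over 9599 regions the differences of replicate 1 and 2 correlated between genotypes at r = 0.07. The share of the arm's peaks was added after seeing the data and gave 1.32 percentage points.

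The 8 Osa-GFP-specific regions, and likewise the 8 with peaks of both Osa-GFP libraries, became 5 at −log10 q of 5 or more, 0 at 10 or more and 0 with 774 peaks a list. They became 6 with an overlap of at least 50% of the shorter peak required, and 7 with peaks up to 200 bp apart merged or with no flank. Leaving out 1 library gave 8 to 16, the highest without Osa-GFP replicate 2. The fall at stricter thresholds follows from their construction, since fewer peaks are left. So does the lack of any fall when 1 library is left out, since fewer lists then have to hold or lack a peak. Within reach of nub alone, leaving out 1 library gave 8 to 13 such regions, and within reach of pdm2 alone 2 to 7, the highest without Osa-GFP replicate 2 in each case.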
